A study of Mus musculus with 18 samples.

Results

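The genes described here are 35 genes of the endoplasmic reticulum (ER), the compartment in which secreted and membrane proteins are made, folded and checked. They were fixed as a list of names (ER chaperones, foldases, degradation factors, stress sensors and translocation subunits) and were found by symbol among the 29875 genes of a deposited count table. All 35 were matched, and all 35 were among the 13844 genes with enough reads to be tested. RNA was measured in bone marrow–derived dendritic cells (DCs), antigen-presenting cells that crawl through tissue toward the chemokine CCL19 once they are mature. Bone marrow came from wild-type C57Bl6/J animals of 8 to 12 weeks of age. The cells were grown with GM-CSF and matured on differentiation day 8 with 200 ng/ml LPS for 24 hours. They were then placed in chambers with bovine collagen at 1.7, 2.6, 3.5 or 4.4 mg/ml, or in the same chambers without collagen. The study states that RNA was taken 5 hours after a CCL19 gradient was set up, without setting the suspension groups apart. Every group had 3 libraries, labelled as biological replicates 1 to 3, which gave 12 collagen and 6 suspension libraries, all of LPS-matured wild-type cells. One suspension group has CCL19 in its title and the other does not, but the library names state the opposite, so both are called here by their titles and no effect of CCL19 is read from them.

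The ER lumen is crowded with chaperones that hold unfolded chains, enzymes that form disulfide bonds, and lectins that retain unfinished glycoproteins. When unfolded protein accumulates, 3 sensors in the ER membrane, IRE1α (encoded by Ern1), ATF6 and PERK (encoded by Eif2ak3), start the unfolded protein response. IRE1α splices the mRNA of the transcription factor XBP1, ATF6 is cut to release a transcription factor, and PERK slows translation while that of ATF4 goes on. XBP1 and ATF6 raise chaperone and degradation genes through short promoter elements. DCs rely on this machinery to make MHC molecules and cytokines, and the IRE1α and XBP1 arm is known to be active in some DCs even without added stress.

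The promoter elements of this response could be read in the reference for the members that had an entry. RefSeq sequence of the 250 bases before the gene start (GRCm38.p6) was given for 28 of the 35 members and for 27025 genes in all. The ER stress response element, searched on both strands as CCAAT, 9 bases of any kind and then CCACG, was found in the window of 9 of the 28 members (32.1%), beside 0.130% of all genes. The related element ERSE-II, searched on both strands as ATTGG, any base and CCACG, was found in 1 of 28 members (3.57%), beside 0.0370% of all genes. The core of the UPR element, searched as TGACGTGG, was found in 0 of 28 members, beside 0.603% of all genes. These members are textbook targets of the response, so the matches describe the list and are not a result of the experiment. Hspa5 was called in the trend over collagen densities in some of the fits given below, but not in the main one. Its window is shown whole, 5′ to 3′ on the strand of the gene, with the element in capitals. It lies at chr2:34771840-34772089 on the plus strand, just upstream of the RefSeq start.
Hspa5: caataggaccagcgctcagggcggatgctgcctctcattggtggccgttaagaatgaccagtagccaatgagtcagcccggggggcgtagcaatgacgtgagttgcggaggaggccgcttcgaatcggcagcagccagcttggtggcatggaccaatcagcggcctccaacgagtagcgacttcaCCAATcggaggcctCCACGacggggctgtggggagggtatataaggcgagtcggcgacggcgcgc

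The other matches are given as the matched stretches alone, with the fixed letters of the element in capitals and, in the sentence after them, how far before the gene start they begin. They were picked for display after the matches had been seen. The letters in capitals are those of the search pattern and are shared by construction, and only the bases in lower case could differ. A stretch that opens with CGTGG holds the element on the opposite strand.
Hsp90b1, first match: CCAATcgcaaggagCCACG
Hsp90b1, second match: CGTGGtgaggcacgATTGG
Calr: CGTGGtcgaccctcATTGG
Canx: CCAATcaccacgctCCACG
Pdia6: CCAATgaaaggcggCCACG
Dnajc3: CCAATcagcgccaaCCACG
Creld2: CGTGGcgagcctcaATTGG
Syvn1: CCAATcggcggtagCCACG
Derl3: CGTGGgacttccccATTGG
Herpud1, ERSE-II: ATTGGgCCACG
The element of Hspa5 began 65 bases before the start (chr2:34772025-34772043). Those of Syvn1 and Herpud1 began 44 and 52 bases before it, and those of Pdia6, Dnajc3, Creld2, Canx, Derl3 and Calr between 98 and 162 bases before it. Hsp90b1 held matches 212 and 107 bases before its start. No match to any of the 3 elements was found in the windows of Dnajb9, Edem1, Xbp1, Ern1, Atf6b and Eif2ak3, which says only that these letters are not in these windows.

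Depth and identity of the libraries bear on what follows. The total count per library was 13062944 to 28059839 reads (median 17344953). Most of the 13 DC markers were well covered, with Cd74, the invariant chain of MHC class II, at 8416 to 31816 CPM (read counts scaled to a common library size) and Ccr7, the receptor of CCL19, at 2342 to 6425 CPM. Zbtb46, a transcription factor of classical DCs, was at 37.1 to 67.3 CPM, and the receptor Flt3 was low at 3.04 to 24.4 CPM. In collagen against suspension, the costimulatory gene Cd80 was higher (log2 0.78) and Flt3 lower (log2 −1.12) by the edgeR quasi-likelihood test at an FDR of 0.1. T and NK cell markers summed to at most 3.54 CPM, but markers of other cell types were present. The 9 neutrophil markers summed to 1045 to 5174 CPM in collagen and 634 to 9762 CPM in suspension, with 2 called lower in collagen (Ly6g, log2 −1.27, and Cxcr2, log2 −1.69) and 0 higher. The 8 macrophage markers summed to 843 to 5263 CPM in collagen and 458 to 3872 CPM in suspension, with 1 called higher (Marco, log2 1.26) and 0 lower. Of 9 eosinophil markers, 8 could be tested and 8 were lower in collagen, and their summed level was 14.1 to 169.5 CPM (median 43.6) in collagen against 118 to 1360 CPM (median 347) in suspension. In bulk RNA, fewer cells of a type and less RNA per cell cannot be told apart. The names of the libraries of 1 replicate number hold the same date and the same code before it. No source says what either marks. Part of that code is shared by replicates 1 and 3 and differs in replicate 2. Deviations of libraries of 1 number from the means of their groups were correlated over genes (mean r = 0.43). Of the libraries, 17 had a mean r of 0.18 to 0.66 with the others of their number. Replicate 2 at 4.4 mg/ml had only 0.03. Results that rest on this library are therefore given with and without it.

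As a body of transcripts, the 35 genes were abundant. Their summed level was 6244 to 9950 CPM in the 12 collagen libraries (median 8210) and 4834 to 8521 CPM in the 6 suspension libraries (median 6122), and these ranges overlapped. Levels of different genes are compared per kilobase of exon. P4hb, the classical protein disulfide isomerase, was the most abundant at a mean of 566 CPM per kb over the 18 libraries, followed by the lectin chaperone Calr at 444 and the transcription factor Xbp1 at 206. The oxidoreductase Pdia3 (ERp57), at 160 CPM per kb, and the Hsp70 chaperone Hspa5 (BiP), at 151 CPM per kb, came next. The stress sensors were low by the same measure, with Ern1 at 13.95, Eif2ak3 at 3.82 and Atf6 at 3.36 CPM per kb. Derl3, a derlin of secretory cells, was the least abundant at 0.259 CPM per kb and was covered by 0 to 25 reads per library, so its differences were hardly measurable at this depth. The first rank of P4hb did not hold in every replicate. In replicate 3 its mean was 708 CPM against 943 CPM for Calr, with exon lengths of 2861 and 2880 bases.

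The first comparison set DCs in collagen matrices against DCs in the same chambers without collagen. All collagen titles name CCL19, whereas by either label 1 of the suspension groups lacks it. The comparison therefore does not fully separate the matrix from CCL19, and movement was not measured in these libraries. Hspa5, the master chaperone of the ER lumen, rose 1.96-fold, and its J-domain partner Dnajb9 (ERdj4), which recruits it to misfolded proteins and to IRE1α, rose 2.40-fold. Manf, a small secreted protein that binds Hspa5, rose 1.42-fold, and Edem1, a lectin that passes misfolded glycoproteins to degradation, rose 1.32-fold. Atf6b, a relative of ATF6, fell to 0.621 of its suspension level. Of the 35 members, 5 passed an FDR of 0.1 (edgeR quasi-likelihood test with Benjamini-Hochberg adjustment over all genes tested), 4 of them higher and 1 lower, which is 14.3% of the members beside 20.2% of all genes tested. By direction, 7.78% of all genes tested rose and 12.4% fell. The median log2 change of the members was 0.13, beside 0.003 for all genes tested, and 24 of 35 members (68.6%) had a positive log2 change, beside 50.2% of all genes tested.

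The number of calls depended on whether the replicate number was included in the model. With the replicate number as a block, 15 members were called, 13 higher and 2 lower, beside 34.8% of all genes tested (15.6% higher and 19.3% lower). The 5 members named above were among these 15. The members added were the chaperones and partners Hsp90b1, Calr, Dnajb11, Dnajc3 and Creld2, the foldases P4hb, Pdia6 and Fkbp2, and the translocon subunit Sec61b, which were higher, and the degradation adaptor Sel1l, which was lower. DESeq2 without a block called 11 members, all of them among the 15, beside 24.7% of all genes tested. Without replicate 2 at 4.4 mg/ml, 9 members were called without the block (beside 20.6%), adding Dnajb11, Hsp90b1, Pdia3 and Sec61b to the 5, and 15 with it (beside 37.6%), with Pdia3 in place of Creld2. The called markers of eosinophils, neutrophils, macrophages and DCs changed in the same comparison as the members called. Of 6 tested basophil or mast cell markers, 1 was called, Hdc, which was higher (log2 0.76). In that list Tpsb2 also had a positive change, and Mcpt8, Cpa3, Ms4a2 and Fcer1a had negative ones, none of them called. The part of a shift in cell makeup in these results was not tested.

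**Figure D1:**
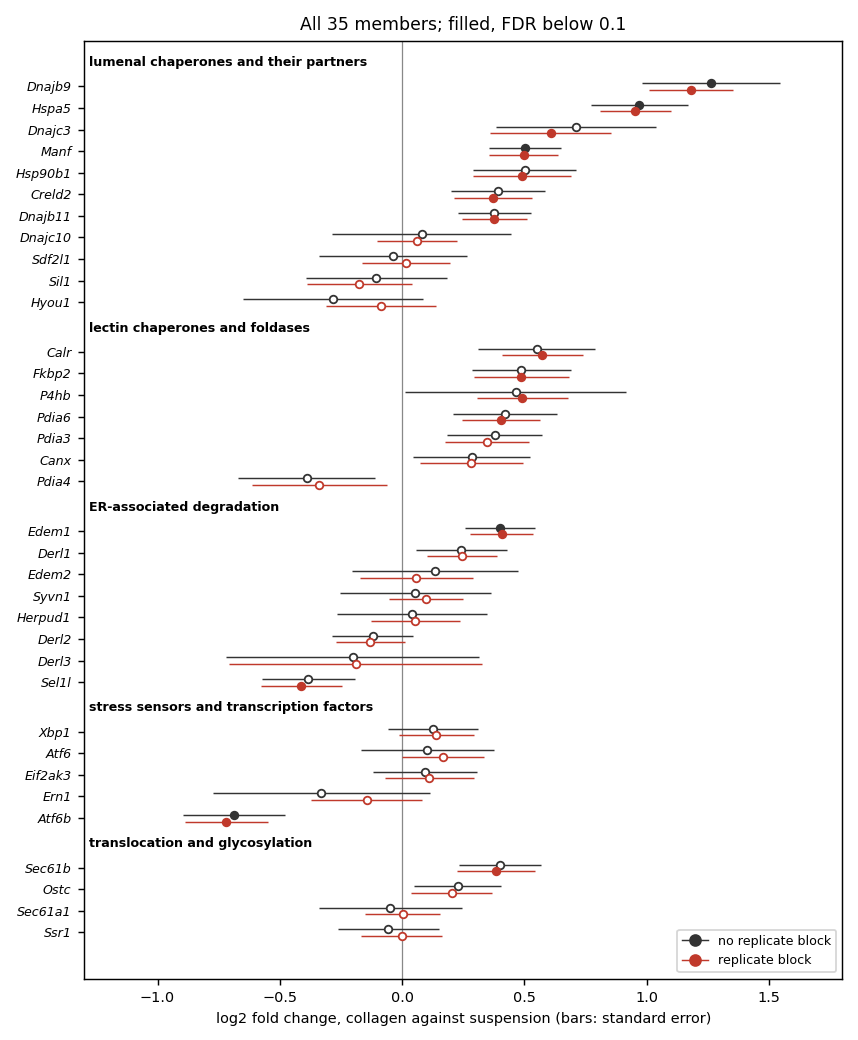
Log2 fold change of each of the 35 members in collagen against suspension (x axis), with the standard error as a bar, grouped by role and sorted within each role. Black points are from the fit without a replicate block and red points from the fit with it, and filled points passed an FDR of 0.1. Dnajb9 (1.26) and Hspa5 (0.97) lie farthest to the right and Atf6b (−0.69) farthest to the left.

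Among the 11 lumenal chaperones and partners, 3 rose and 0 fell (edgeR quasi-likelihood test, FDR of 0.1), beside 7.78% and 12.4% of all genes tested. Their median log2 change was 0.39. Hspa5 (chr2:34771970-34777547, plus strand, GRCm38) was measured at 386, 383 and 307 CPM in suspension titled plus CCL19 and at 487, 386 and 304 CPM in suspension titled without CCL19, for replicates 1, 2 and 3. In collagen it was at 672, 455 and 406 CPM at 1.7 mg/ml, at 785, 599 and 721 CPM at 2.6 mg/ml, at 981, 575 and 547 CPM at 3.5 mg/ml, and at 1437, 854 and 1174 CPM at 4.4 mg/ml. The 3 libraries of each density from 2.6 mg/ml upward were above all 6 suspension libraries, whereas replicates 2 and 3 at 1.7 mg/ml lay within the suspension range. The log2 change in collagen was 0.97 ± 0.20 (SE; adjusted p = 0.00487, edgeR quasi-likelihood test), and within replicates 1, 2 and 3 the collagen mean was higher by 1.10, 0.65 and 1.11 on the log2 CPM scale. Hspa5 made up 5.89% of the summed member CPM in suspension, 9.33% in collagen and 12.7% at 4.4 mg/ml.

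Dnajb9 (chr12:44205559-44210326, minus strand) was counted at a lower level. It was measured at 26.3, 13.2 and 19.6 CPM in suspension titled plus CCL19 and at 34.9, 35.6 and 28.6 CPM in suspension titled without CCL19. In collagen its levels were 64.9, 33.3 and 39.6 CPM at 1.7 mg/ml, 73.6, 37.7 and 56.8 CPM at 2.6 mg/ml, 99.5, 44.1 and 45.2 CPM at 3.5 mg/ml, and 143, 46.3 and 71.5 CPM at 4.4 mg/ml. Replicate 1 was the highest library at each density, and the 9 libraries from 2.6 to 4.4 mg/ml were above all 6 suspension libraries. The log2 change in collagen was 1.26 ± 0.28 (SE; adjusted p = 0.0081, edgeR quasi-likelihood test), and it was 1.18 ± 0.17 with the replicate block. The suspension groups did not overlap for this gene, but their difference did not pass the test (log2 −0.74 ± 0.44, adjusted p = 0.761, and adjusted p = 0.323 with the block, edgeR quasi-likelihood test).

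Manf (chr9:106838312-106891979, minus strand) was at 76.8, 117 and 88.6 CPM in suspension titled plus CCL19 and at 81.3, 67.5 and 75.8 CPM in suspension titled without CCL19. The collagen levels were 127, 97.7 and 132 CPM at 1.7 mg/ml, 121, 99.8 and 82.9 CPM at 2.6 mg/ml, 123, 114 and 116 CPM at 3.5 mg/ml, and 147, 125 and 151 CPM at 4.4 mg/ml. Replicates 2 and 3 of suspension titled plus CCL19 lay within the collagen range, whereas at 4.4 mg/ml the groups did not overlap. The log2 change in collagen was 0.50 ± 0.15 (SE; adjusted p = 0.0338, edgeR quasi-likelihood test). Some partners passed the edgeR test with the block but not without it. In the fit with the block, Dnajc3 (p58IPK), a lumenal J-domain protein, had a log2 change of 0.61 and Hsp90b1 (GRP94), the Hsp90 of the ER, of 0.49. Dnajb11 (ERdj3) and Creld2, both induced by ER stress in other settings, had 0.38 and 0.37. DESeq2 without a block also called Dnajc3, Hsp90b1 and Dnajb11. The nucleotide exchange factors of Hspa5, Hyou1 (log2 −0.28) and Sil1 (−0.10), and the partners Sdf2l1 (−0.04) and Dnajc10 (0.08) did not pass with or without the block.

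**Figure D2:**
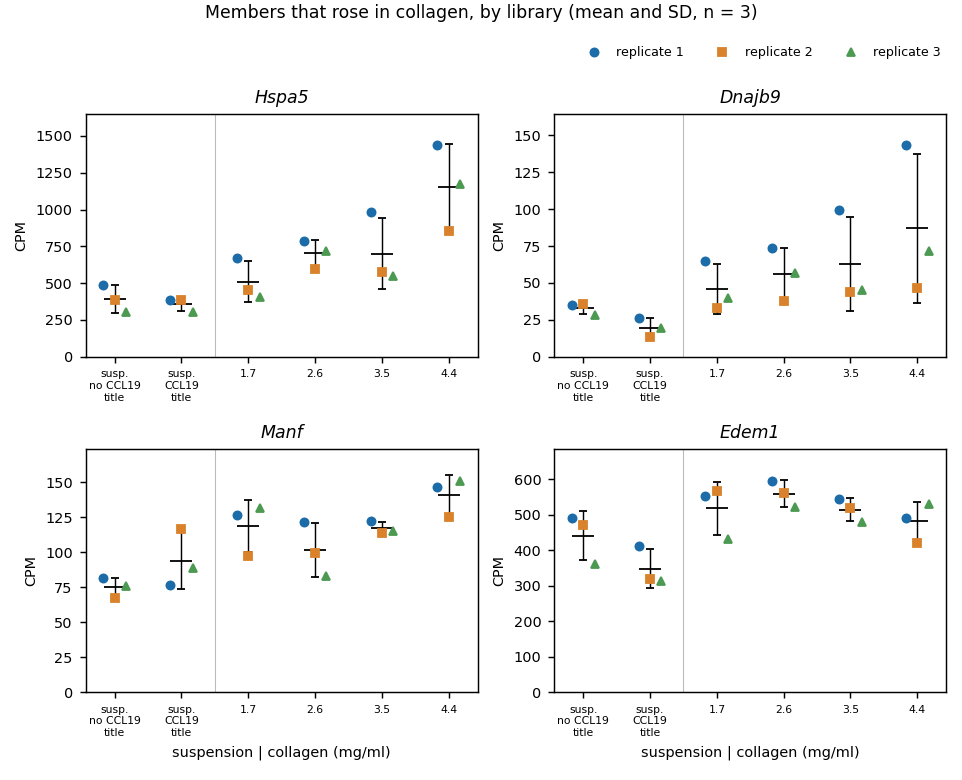
Level (CPM, y axis from 0) of the 4 members that rose in collagen against suspension without a replicate block, by group (x axis), with each library marked by its replicate number, the mean as a black line and the SD as a bar (n = 3 per group). Hspa5 runs from 304 to 487 CPM in suspension and reaches 854 to 1437 CPM at 4.4 mg/ml, whereas Edem1 has no higher level at 4.4 mg/ml than at 2.6 mg/ml.

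Of the 7 lectin chaperones and foldases, 0 passed without the block (edgeR quasi-likelihood test), beside 20.2% of all genes tested. Their median log2 change was 0.42. With the block 4 rose, beside 15.6% of all genes tested that rose. Those 4 were Calr, a soluble lectin chaperone (log2 0.57 ± 0.17 with the block), P4hb (0.49 ± 0.19), Fkbp2, a peptidyl-prolyl isomerase (0.49 ± 0.19), and Pdia6 (0.41 ± 0.16). DESeq2 without a block called Calr and Fkbp2. For P4hb the replicate number mattered more than the group. Its level was 2030 to 3149 CPM in the 6 replicate 1 libraries and 564 to 967 CPM in the 6 replicate 3 libraries. Fkbp2, in contrast, varied little with the replicate number, which held 2.80% of its sum of squares. With the block its p moved only from 0.0281 to 0.0222 and its adjusted p from 0.124 to 0.0724 (edgeR quasi-likelihood test). Canx (log2 0.28), the membrane-bound relative of Calr, Pdia3 (0.38) and Pdia4 (−0.39) did not pass in either fit.

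Among the 8 factors of ER-associated degradation, 1 rose and 0 fell, beside 7.78% and 12.4% of all genes tested, and the median log2 change was 0.05. Edem1 (chr6:108828641-108859356, plus strand) was at 412, 318 and 314 CPM in suspension titled plus CCL19 and at 491, 470 and 362 CPM in suspension titled without CCL19. Its collagen levels were 554, 567 and 432 CPM at 1.7 mg/ml, 596, 561 and 521 CPM at 2.6 mg/ml, 544, 519 and 480 CPM at 3.5 mg/ml, and 492, 421 and 530 CPM at 4.4 mg/ml. At 2.6 mg/ml the collagen libraries were above all suspension libraries, and at the other densities the ranges overlapped. The log2 change was 0.40 ± 0.14 (SE; adjusted p = 0.0776, edgeR quasi-likelihood test), a call that was made in 6 of 21 fits that left out 1 library or 1 replicate number. Sel1l, the adaptor of the Hrd1 ubiquitin ligase, passed with the block (log2 −0.41 ± 0.17, adjusted p = 0.0731, edgeR quasi-likelihood test) and was lower in 3 of 3 replicates. The ligase itself, Syvn1, had a log2 change of 0.05 and its scaffold Herpud1 of 0.04. The channel-forming derlins Derl1 and Derl2 were at 0.24 and −0.12, and the mannosidase-like Edem2 was at 0.13, none of them called.

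Of the 5 stress sensors and transcription factors, 0 rose and 1 fell (edgeR quasi-likelihood test, FDR of 0.1), beside 7.78% and 12.4% of all genes tested. Their median log2 change was 0.09. Atf6b (chr17:34647146-34655074, plus strand) was at 129, 105 and 104 CPM in suspension titled plus CCL19 and at 96.4, 75.7 and 96.7 CPM in suspension titled without CCL19. In collagen it was at 84.6, 52.2 and 64.8 CPM at 1.7 mg/ml, at 77.2, 43.5 and 37.0 CPM at 2.6 mg/ml, at 71.5, 42.5 and 42.2 CPM at 3.5 mg/ml, and at 80.1, 119 and 49.4 CPM at 4.4 mg/ml. The 3 libraries at 3.5 mg/ml were below all suspension libraries, and replicate 2 at 4.4 mg/ml was the only collagen library above 84.6 CPM. The log2 change was −0.69 ± 0.21 (SE; adjusted p = 0.0394, edgeR quasi-likelihood test), and −0.78 without replicate 2 at 4.4 mg/ml.

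Xbp1 (chr11:5520659-5525893, plus strand) was measured at 537, 914 and 840 CPM in suspension titled plus CCL19 and at 425, 473 and 635 CPM in suspension titled without CCL19. Collagen libraries had Xbp1 at 719, 815 and 844 CPM at 1.7 mg/ml, at 687, 730 and 604 CPM at 2.6 mg/ml, at 566, 816 and 771 CPM at 3.5 mg/ml, and at 468, 412 and 808 CPM at 4.4 mg/ml. The collagen libraries, at 412 to 844 CPM, lay within the suspension range but for 1, and the log2 change was 0.13 ± 0.19 (SE; adjusted p = 0.71, edgeR quasi-likelihood test). Counts per gene do not separate spliced from unspliced Xbp1 mRNA, so the activity of IRE1α cannot be read from this level.

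Ern1 (chr11:106394650-106487852, minus strand) was at 248, 64.2 and 40.3 CPM in suspension titled plus CCL19, at 209, 192 and 36.1 CPM in suspension titled without CCL19, and between 28 and 152 CPM in collagen. In collagen it was at 127, 116 and 38.5 CPM at 1.7 mg/ml, at 152, 148 and 104 CPM at 2.6 mg/ml, at 143, 115 and 28 CPM at 3.5 mg/ml, and at 129, 118 and 43.5 CPM at 4.4 mg/ml. Replicate 3 was the lowest library of every group, and the log2 change of −0.33 ± 0.44 (SE; adjusted p = 0.675, edgeR quasi-likelihood test) was smaller than its error. The log2 change turned positive, at 0.29, when replicate 1 of suspension titled plus CCL19 was left out.

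Atf6 (chr1:170704674-170867771, minus strand) was at 44.2, 19.2 and 17.6 CPM in suspension titled plus CCL19 and at 45.0, 34.4 and 16.3 CPM in suspension titled without CCL19. Collagen libraries had Atf6 at 29.2, 28.2 and 19.8 CPM at 1.7 mg/ml, at 39.9, 30.2 and 33.6 CPM at 2.6 mg/ml, at 49.2, 27.3 and 21.4 CPM at 3.5 mg/ml, and at 51.1, 28.5 and 23.0 CPM at 4.4 mg/ml. The ranges overlapped, with a log2 change of 0.10 ± 0.27 (SE; adjusted p = 0.843, edgeR quasi-likelihood test).

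Eif2ak3 (chr6:70844515-70905245, plus strand) was at 21.7, 17.3 and 16.1 CPM in suspension titled plus CCL19 and at 31.3, 29.1 and 15.6 CPM in suspension titled without CCL19. Collagen libraries had Eif2ak3 at 16.6, 21.1 and 12.0 CPM at 1.7 mg/ml, at 22.0, 26.3 and 35.1 CPM at 2.6 mg/ml, at 27.1, 23.8 and 13.2 CPM at 3.5 mg/ml, and at 34.9, 28.8 and 22.0 CPM at 4.4 mg/ml. Its log2 change was 0.09 ± 0.21 (SE; adjusted p = 0.817, edgeR quasi-likelihood test). Its 3 libraries at 4.4 mg/ml were above its 3 libraries at 1.7 mg/ml, a log2 difference of 0.79 that did not pass the test (adjusted p = 0.606, and 0.219 with the block, edgeR quasi-likelihood test).

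**Figure D3:**
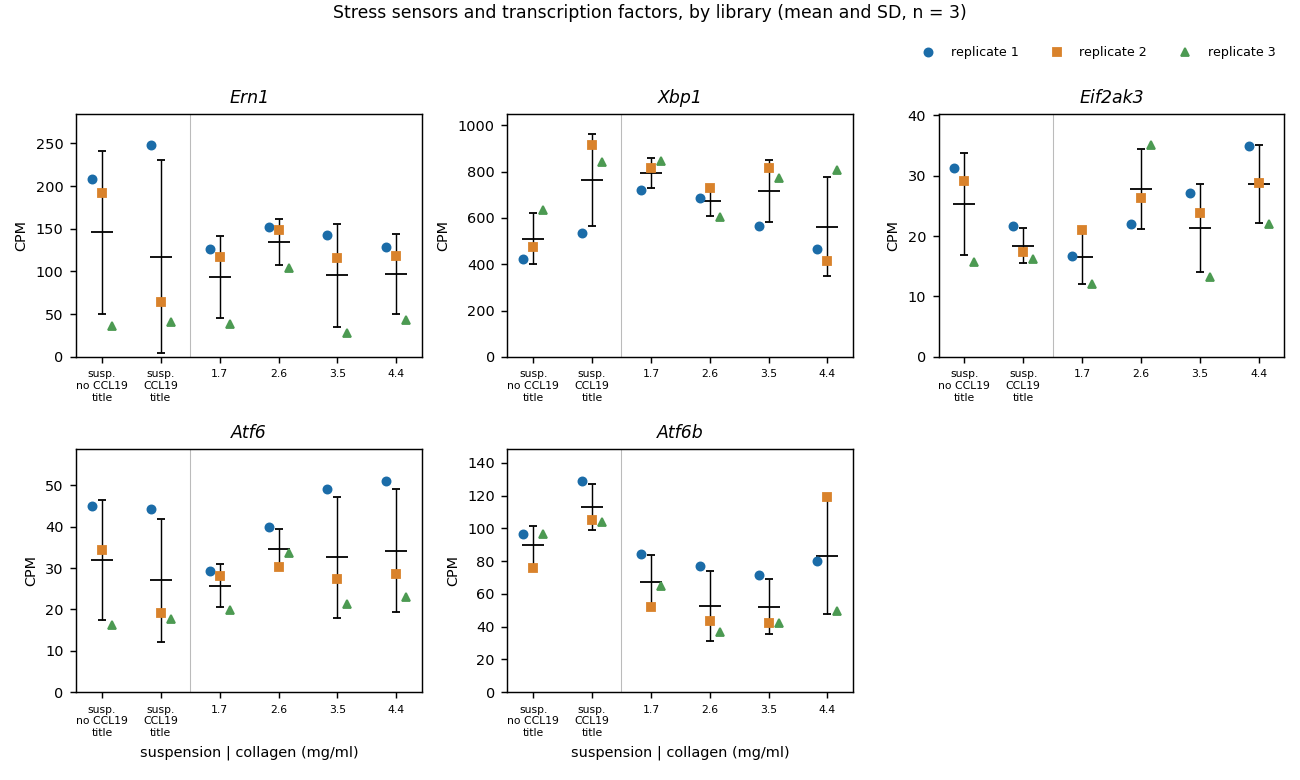
Level (CPM, y axis from 0) of the 5 stress sensors and transcription factors by group (x axis), with each library marked by its replicate number, the mean as a black line and the SD as a bar (n = 3 per group). Atf6b is at 37.0 to 84.6 CPM in collagen except in replicate 2 at 4.4 mg/ml (119 CPM), and replicate 3 of Ern1 is the lowest library in every group.

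The 4 members of translocation and glycosylation had a median log2 change of 0.09. Without the block 0 of them passed (edgeR quasi-likelihood test), beside 20.2% of all genes tested. Sec61b, the small beta subunit of the translocon, had a log2 change of 0.40 ± 0.17 (SE) and was called with the block and by DESeq2. The pore subunit Sec61a1 (−0.05), the translocon-associated Ssr1 (−0.06) and the oligosaccharyltransferase subunit Ostc (0.23) were not called.

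The next comparisons set each collagen density against the same 6 suspension libraries, which they share, and then the densities against each other. At 1.7 mg/ml 0 members were called (edgeR quasi-likelihood test, beside 0.0361% of all genes tested), with 2 members at an unadjusted p under 0.05 and 0 called by DESeq2. With the block 1 member was called there, Dnajb9, which was higher (log2 0.79, adjusted p = 0.0898, edgeR quasi-likelihood test), beside 2.91% of all genes tested in either direction and 1.5% higher. At 2.6 mg/ml 2 members, Hspa5 and Dnajb9, were higher, beside 7.87% of all genes tested called (4.29% higher and 3.58% lower). At 3.5 mg/ml the same 2 were higher, beside 4.9% called (1.97% higher and 2.93% lower). At 4.4 mg/ml 5 members were called, beside 14.8% of all genes tested (6.55% higher and 8.29% lower). Hspa5, Dnajb9, Manf and Fkbp2 were higher there, and Sel1l was lower.

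The replicate block raised these counts. At 2.6 mg/ml it called 6 members, adding Calr, Dnajb11 and Edem1, which were higher, and Atf6b, which was lower, beside 21.6% of all genes tested (12.0% higher and 9.62% lower). At 3.5 mg/ml it called 4, adding Dnajc3, which was higher, and Atf6b, which was lower, beside 18.4% (8.03% higher and 10.4% lower). At 4.4 mg/ml it called 11, adding Calr, Dnajb11, Edem2, Hsp90b1, P4hb and Pdia6, all higher, beside 31.9% (15.8% higher and 16.2% lower). Leaving out replicate 2 at 4.4 mg/ml in the fit with the block gave 12 calls at that density (beside 25.1%), without Edem2, P4hb and Sel1l and with Atf6b, Dnajc3, Pdia3 and Sec61b. Without replicate 2 at 4.4 mg/ml, the count at 4.4 mg/ml was 6 (beside 10.1% of all genes tested), with Hspa5, Dnajb9 and Manf kept, Fkbp2 and Sel1l lost, and Dnajb11, Hsp90b1 and Pdia3 gained.

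Values below are in the order of increasing density. The log2 change of Hspa5 against suspension was 0.45 ± 0.26 (SE), 0.90 ± 0.26, 0.90 ± 0.26 and 1.62 ± 0.26, with adjusted p of 0.729, 0.067, 0.0831 and 0.00187 (edgeR quasi-likelihood test). Dnajb9 changed by 0.85 ± 0.36, 1.13 ± 0.36, 1.30 ± 0.36 and 1.77 ± 0.36, with adjusted p of 0.584, 0.0894, 0.0742 and 0.00696 by the same test. The Hspa5 change at 4.4 mg/ml was a 3.08-fold increase and that of Dnajb9 a 3.41-fold increase. Manf was at 0.50, 0.27, 0.48 and 0.75, and was called at 4.4 mg/ml alone (adjusted p = 0.0268). Edem1 was at 0.40, 0.51, 0.39 and 0.30, with no call at any single density without the block.

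Counted by library, some members had groups that did not overlap. At 4.4 mg/ml 3 of 35 members, Hspa5, Dnajb9 and Manf, were above every suspension library, beside 4.93% of all genes tested. There, 0 members were below, beside 9.25%. At 2.6 mg/ml 5 of 35 were above, namely Hspa5, Dnajb9, Pdia3, Dnajb11 and Edem1 (beside 4.36%), with 0 members below (beside 6.1%). At 3.5 mg/ml 4 of 35 were above, namely Hspa5, Dnajb9, Pdia3 and Dnajb11 (beside 3.92%). Atf6b was below every suspension library at 3.5 mg/ml, beside 6.29%. At 1.7 mg/ml 0 members were free of overlap in either direction, beside 1.96% of all genes tested that were higher and 3.3% that were lower. The same held for all 12 collagen against all 6 suspension libraries, beside 0.506% higher and 1.52% lower.

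**Figure D4:**
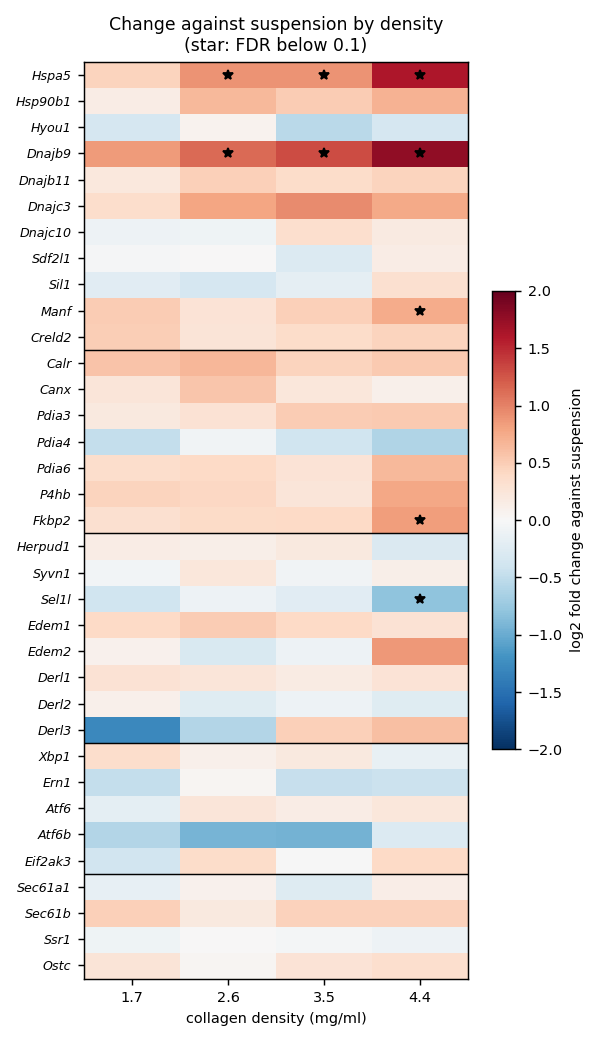
Log2 fold change of each member (rows, ordered by role and separated by lines) at each collagen density (columns, mg/ml) against the 6 suspension libraries, without a replicate block, from blue (lower) to red (higher), with a star where the FDR was below 0.1. Hspa5 and Dnajb9 carry stars at every density but 1.7 mg/ml, Manf, Fkbp2 and Sel1l at 4.4 mg/ml, and 0 members at 1.7 mg/ml.

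Within collagen, the linear trend over density asks whether denser matrices change a gene further. Without the block 0 members passed (edgeR quasi-likelihood test, beside 0.00722% of all genes tested), with 3 at an unadjusted p under 0.05 and 1 called by DESeq2 (beside 0.73%). The median slope of the members was 0.06 log2 per mg/ml, beside 0.003 for all genes tested. Hspa5 had a slope of 0.39 ± 0.11 log2 per mg/ml (SE; adjusted p = 0.415, edgeR quasi-likelihood test). The replicate block left it at 0.39 ± 0.08 with a smaller adjusted p of 0.0481 (edgeR quasi-likelihood test), past the threshold, beside 1.45% of all genes tested (0.802% rising with density), as it did in DESeq2 (0.40, adjusted p = 0.0597). Without replicate 2 at 4.4 mg/ml it was 0.45 (adjusted p = 0.566) and, with the block, 0.44 (adjusted p = 0.0689, beside 0.313% of all genes tested called), both by the edgeR quasi-likelihood test. The slope of Dnajb9, 0.33 ± 0.15, did not pass in either fit (adjusted p = 0.686, and 0.152 with the block, edgeR quasi-likelihood test).

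The ends of the density series gave the same order. Between 1.7 and 4.4 mg/ml 0 members passed without the block (edgeR quasi-likelihood test, beside 0.00722% of all genes tested), with 3 at an unadjusted p under 0.05, 1 called by DESeq2 (beside 0.946%) and 1 with the block (beside 1.73%, 1.12% higher). Both of these calls were Hspa5, which was 2.26-fold higher at 4.4 mg/ml (log2 1.18 ± 0.31, adjusted p = 0.366, and 1.19 ± 0.23, adjusted p = 0.0305, with the block, edgeR quasi-likelihood test). Within replicates 1, 2 and 3 it was higher by 1.09, 0.91 and 1.53 on the log2 CPM scale. Hspa5, Eif2ak3, Fkbp2 and Derl3 had no overlap between the 2 densities, beside 4.53% of all genes tested, although Derl3 was counted with 0 to 6 reads at 1.7 mg/ml and 11 to 14 at 4.4 mg/ml.

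The 2 suspension groups differed in 0 members with or without the block and by DESeq2 (beside 0.0% of all genes tested, edgeR quasi-likelihood test), with 1 member at an unadjusted p under 0.05 without the block and 4 with it. Over all 6 groups at once, 2 members, Hspa5 and Dnajb9, varied (beside 4.9% of all genes tested), and 5 with the block (beside 24.3%), which added Manf, Atf6b and Edem2. Edem2 was at 499 CPM in replicate 2 at 4.4 mg/ml and at 53.7 to 274 CPM in the other libraries, and it was not among the 7 members called with the block when that library was left out (beside 24.7% of all genes tested).

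The members differed in how much they varied with the group and with the replicate number. Of the sum of squares of log2 CPM over the 18 libraries, the groups held a median of 30.2% for the members and 33.6% for all genes tested, and the replicate numbers held 24.9% and 25.8%. The replicate share was larger than the group share in 17 of 35 members, 48.6%, beside 42.2% of all genes tested. The group share was 80.6% for Hspa5, 73.9% for Manf, 69.6% for Edem1 and 67.2% for Dnajb9. The replicate share was 82.7% for Syvn1, 80.6% for Dnajc10, 78.1% for P4hb, 77.9% for Sec61a1 and 73.4% for Ern1. Other members had low shares of both, such as Pdia4 with 15.6% between groups and 6.80% between replicate numbers. The members just named with large replicate shares did not all move in 1 direction. The mean level in replicates 1, 2 and 3 was 2648, 1504 and 708 CPM for P4hb, and Syvn1, Sec61a1 and Ern1 also fell in this order. For Dnajc10, a reductase that works in degradation, the mean level rose instead, at 65.4, 146 and 193 CPM.

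**Figure D5:**
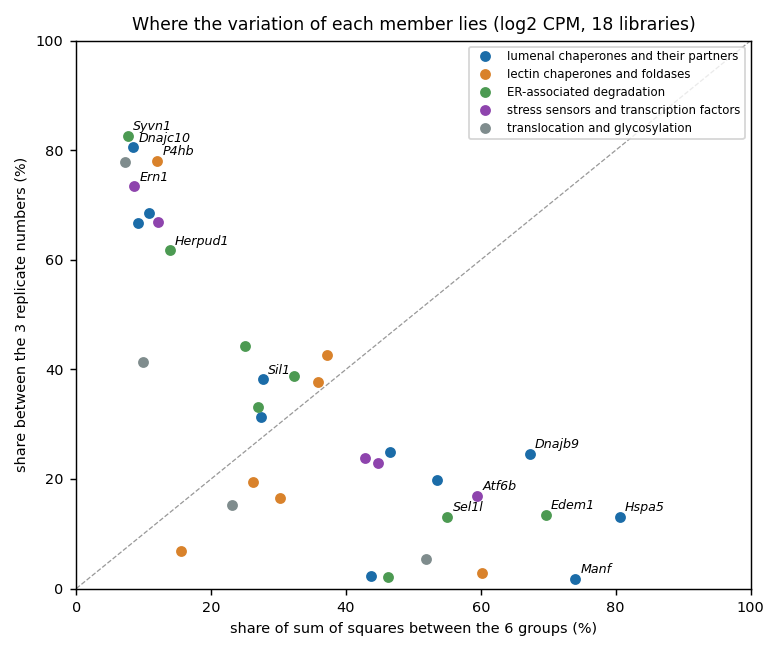
Share of the sum of squares of log2 CPM that lies between the 6 groups (x axis, %) and between the 3 replicate numbers (y axis, %) for each of the 35 members, coloured by role, with a dashed line where both are equal. Hspa5, Manf, Edem1 and Dnajb9 lie at the lower right with group shares of 67.2 to 80.6%, and Syvn1, Dnajc10 and P4hb at the upper left with replicate shares of 78.1 to 82.7%.

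Within replicates, 13 members had a higher mean log2 CPM in collagen in 3 of 3 replicates (37.1% of members, beside 24.9% of all genes tested), 2 were lower in 3 of 3 (beside 26%), and 20 were mixed. The 13 were Hspa5, Dnajb9, Dnajb11, Manf and Creld2 among the lumenal chaperones and partners, Calr, Pdia6, P4hb and Fkbp2 among the lectins and foldases, Edem1 and Derl1 among the degradation factors, and Xbp1 and Sec61b. The 2 lower members were Sel1l and Atf6b. Hsp90b1 and Dnajc3 were mixed because replicate 2 went slightly the other way, by −0.07 and −0.02 on the log2 scale, against 1.10 and 1.60 in replicate 3.

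The members with and without a promoter element had overlapping changes. In collagen against suspension the 10 members with a match to ERSE or ERSE-II had a median log2 change of 0.41 (range −0.20 to 0.97), with 1 called higher. The 18 members whose window held no match had a median of 0.11 (range −0.69 to 1.26), with 2 called higher and 1 lower. With the block these counts were 6 higher and 0 lower of 10, and 6 higher and 2 lower of 18. Of all genes tested, 7.78% were called higher and 12.4% lower without the block, and 15.6% and 19.3% with it. Both the strongest riser with the element, Hspa5, and the strongest without it in the window, Dnajb9, rose in the same comparison, and the difference between these sets was not tested.

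Neighbouring genes of the pathway that are not in the list of 35 were counted in lists of their own. These lists, too, were chosen with earlier results of these data known. In the PERK and ATF4 arm, 2 of 14 tested genes rose and 2 fell in collagen (edgeR quasi-likelihood test, FDR of 0.1), beside 7.78% of all genes tested that rose and 12.4% that fell. With the block 7 rose and 3 fell, beside 15.6% and 19.3%. Atf4, the transcription factor whose translation PERK promotes, rose by 1.47 ± 0.37 on the log2 scale (adjusted p = 0.0151), from 109 to 410 CPM over the suspension libraries to 262 to 1205 CPM over the collagen libraries. Nupr1, a stress-induced transcriptional regulator, rose by 1.54 ± 0.36 (adjusted p = 0.0102). Asns, which makes asparagine and is a target of ATF4, had a log2 change of −0.63 ± 0.22 (adjusted p = 0.0689), and Sesn2, another stress-induced gene, of −0.49 ± 0.17 (adjusted p = 0.062). Both fell, so the genes of this arm did not move together.

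Among 12 tested regulators of ER stress outside the members, 1 rose and 5 fell, with or without the block (edgeR quasi-likelihood test, FDR of 0.1). Beside them, 7.78% of all genes tested rose and 12.4% fell without the block, and 15.6% and 19.3% with it. Bfar, a regulator of cell death at the ER, rose by 1.45 ± 0.23 on the log2 scale (adjusted p = 0.00113). The 3 largest falls were those of Creb3l2, an ATF6-like membrane-bound factor (−1.38 ± 0.43, adjusted p = 0.0445), Map3k5, the kinase ASK1 (−1.25 ± 0.31, adjusted p = 0.0152), and Wfs1, an ER membrane protein (−1.22 ± 0.30, adjusted p = 0.0127), genes of low abundance that reached at most 20.03, 8.43 and 14.4 CPM in any library. The other 2 were Mbtps1 and Mbtps2, the site 1 and site 2 proteases that cut ATF6.

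The remaining lists were counted by the same test, against the same shares of all genes tested. Of 25 tested translocation and glycosylation genes, 2 rose and 0 fell (6 and 0 with the block), the translocon gamma subunit Sec61g (log2 0.98 ± 0.38) and its partner Sec63 (0.69 ± 0.23). Of 20 oxidative folding genes, 1 rose and 1 fell (4 and 2 with the block): Erp44, which retains unassembled proteins, had a log2 change of 0.66 ± 0.20, and the disulfide isomerase Pdia5 had one of −0.95 ± 0.17. Of 26 tested genes of glycoprotein quality control and degradation, 2 rose, the ubiquitin-conjugating enzymes Ube2j2 (0.78 ± 0.20) and Ube2j1 (0.46 ± 0.17), and 3 fell, the glucosidases Mogs (−0.88 ± 0.21) and Ganab (−0.64 ± 0.19) and the adaptor Faf2 (−0.73 ± 0.15). With the block 5 rose and 5 fell. Of 20 genes of ER exit and the COPII coat, 2 rose, Sec24a (0.73 ± 0.23) and the cargo receptor Tmed2 (0.68 ± 0.25), and 2 fell, the scaffold Sec16a (−0.92 ± 0.17) and the coat subunit Sec31a (−0.46 ± 0.17), with 2 and 3 under the block.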

How the data were processed

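RNA-seq was analysed in 18 libraries (6 groups of 3). The deposited table of the authors holds raw counts for each Ensembl gene, from 50-base single-end reads of stranded mRNA libraries, aligned with STAR 2.7.0f to GRCm38. The study's methods name RSEM for TPM values, but whether the deposited counts came from it, and how multiply matching reads were treated, is not given in the sources used here. Genes were filtered with filterByExpr, scaled by TMM and fitted together without a block (edgeR 4.0.16 quasi-likelihood, R 4.3.3), and called at an FDR of 0.1. The standard error is the log2 change divided by the square root of F. CPM were computed on TMM-scaled sizes. DESeq2 1.42.0, the replicate block, DESeq2 size factors, no filter, an FDR of 0.05, GC and length offsets and left-out libraries were alternatives. Replicate numbers pair the libraries because the library names give a shared date and code per number (mean r = 0.43 within a number). The mean r of −0.21 between numbers follows from centring on the means of groups of 3 and is no separate evidence. The titles call the replicates biological and the study calls them independent, without saying whether they came from separate animals, so p-values measure the spread between these samples. Groups came from the titles. The members and lists were chosen with earlier results of these data known. Named in full were Hspa5, Xbp1 and the 3 sensors, members called within collagen, and the largest called changes against suspension. The biological coefficient of variation was 49.0% (33.1% with the block). At these depths 3 counts correspond to 0.0941 to 0.256 CPM, covering counting error only. Fits were tested on simulated data.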

Additional observations from a re-analysis of the deposited data

How the results depend on the processing

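Hspa5 and Dnajb9 were called in collagen against suspension in all 21 fits that left out 1 library or 1 replicate number (highest adjusted p 0.0902 and 0.0866, edgeR quasi-likelihood test), Manf and Atf6b in 18 each and Edem1 in 6. Without the filter on low counts Manf and Edem1 were lost (adjusted p = 0.313 and 0.545), and at an FDR of 0.05 Edem1 was lost. The cause was not tested. Gene-level counts limit what can be said of Xbp1 splicing, and Derl3 is limited by depth.

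The number of members called changed as follows, in the order any difference, collagen against suspension, density trend, each density against suspension from the lowest to the highest, and the highest against the lowest, from 2, 5, 0, 0, 2, 2, 5 and 0. With the replicate block it was 5, 15, 1, 1, 6, 4, 11 and 1. With GC and length offsets and the replicate block it was 9, 14, 1, 2, 9, 9, 16 and 3, and with the block and without replicate 2 at 4.4 mg/ml 7, 15, 1, 2, 7, 6, 12 and 1. DESeq2 gave 4 for any difference, 11 for collagen, 1 for the trend, 4 at 2.6 mg/ml and 1 for the highest against the lowest density. GC and length offsets alone gave 1 for any difference, 9 for collagen and 1 at 3.5 mg/ml. For the 3 higher densities in turn, no filter gave 1, 1 and 2 calls and an FDR of 0.05 gave 0, 0 and 3, with 1 for any difference. The suspension groups gave 0 in every fit. In the order given first, the shares of all genes tested were 4.9, 20.2, 0.00722, 0.0361, 7.87, 4.9, 14.8 and 0.00722% without the block. With the block they were 24.3, 34.8, 1.45, 2.91, 21.6, 18.4, 31.9 and 1.73%. Shares are not given here for GC and length offsets, no filter, an FDR of 0.05 or most left-out libraries. Those counts therefore have no general rate beside them.

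Leaving out 1 library or 1 replicate number gave 0 to 2 calls for any difference, 2 to 9 for collagen, 0 to 0 for the trend, the lowest density, the highest against the lowest and the suspension groups, and, for the higher densities in turn, 0 to 3, 0 to 3 and 1 to 6. For any difference, 0 remained without replicate 1 at 4.4 mg/ml or any replicate number. For collagen, the count was 9 without replicate 2 at 4.4 mg/ml, 8 without replicate 3 at 2.6 mg/ml, and 3, 2 and 3 without replicate numbers 1, 2 and 3. At 4.4 mg/ml it was 2 without replicate 1 of that density, 3 without replicate 1 or replicate 3 of suspension titled plus CCL19, and 1 and 2 without replicate numbers 2 and 3. Both Hspa5 and Dnajb9 were lost at 2.6 mg/ml without any 1 library of that density, replicates 2 or 3 of suspension titled plus CCL19, replicate 3 of the other suspension group, or replicate number 2 or 3. At 3.5 mg/ml both were lost without any 1 library of that density or of suspension other than replicate 1 titled plus CCL19, and without any replicate number.

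The log2 changes that turned sign were in results that were not called. The slope of Atf6b was −0.0612 per mg/ml without replicate 2 at 4.4 mg/ml with the block, and Ern1 was at 0.0840 in collagen with GC and length offsets and the block. With 1 library or number left out, Atf6 ranged from −0.0554 to 0.408 in collagen and from −0.00977 to 0.199 in slope, Eif2ak3 from −0.0337 to 0.232 in collagen, Ern1 from −0.56 to 0.29 in collagen and from −0.166 to 0.0750 in slope, the slope of Atf6b from −0.0684 to 0.207, and the slope of Edem1 from −0.113 to 0.00237.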
